A study of Mus musculus with 6 samples.

Results

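The proteasome genes of activated CD4 T cells were followed in the absence of miR-155. A probe set, the unit of the array that reports 1 transcript, was taken when its only gene symbol began with Psm, a letter from a to f and a number. This gave 80 of 22690 probe sets, for 44 of the 12393 genes with a probe set of their own. Of the 44 genes, 42 encode proteasome subunits, assembly helpers or regulators, and 2, Psmc3ip and Psme3ip1, share only the beginning of the name and are given apart. The immunoproteasome subunit genes Psmb8, Psmb9 and Psmb10 and the activator gene Psme1 had 1 probe set each. Psme2, the partner of Psme1, was not analysed here, because its probe set is listed for Psme2 and Psme2b together.

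The study compared CD4 T cells of 3 miR-155 KO mice with those of 3 WT mice, all of strain C57BL/6. Cells of both genotypes were taken from spleen and lymph nodes with CD4 beads and cultured for 3 days with 1 µg/mL of antibodies to CD3 and CD28 and 20 U/mL of interleukin 2. The series description gives 1 mouse for each Affymetrix array, and nothing in it limits the deletion to T cells. The question was how transcripts differ in T cells that lack the microRNA. The part of it that pairs with messages, the seed (bases 2 to 8), is in capitals in the mature sequence from RefSeq (GRCm38.p6, chr16:84714143-84714165, plus strand), shown because it is what the KO cells lack.
mmu-miR-155-5p: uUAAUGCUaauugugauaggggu

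The 26S proteasome degrades proteins tagged with ubiquitin. Its 20S core is a barrel of alpha and beta rings with 3 kinds of catalytic beta subunit, and its 19S cap recognises, unfolds and feeds in the substrate. Interferon gamma induces immunoproteasome subunits, which replace the catalytic ones and shift the peptides offered on MHC class I, and T cells carry many immunoproteasomes. When proteasome activity is short, the transcription factor encoded by Nfe2l1 raises the constitutive subunit genes together.

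Before the members, the arrays were checked. Mir155hg, the host transcript of miR-155, measured 3.51, 3.89 and 4.45 on the KO arrays, against 7.69, 6.59 and 8.21 on the WT arrays (log2 levels), so each array lay on the side of its label. Its KO values all lay below 4.72, the level of the dimmest gene in the test, and no size is given for its difference. Arrays of the same number matched in transcripts that mark sex. Both replicate 1 arrays carried Xist (13.35 on the KO and 13.08 on the WT array) with the Y-linked Eif2s3y low (3.50 on the KO and 3.44 on the WT array), and both replicate 2 arrays Eif2s3y (10.41 on the KO and 10.51 on the WT array) with Xist low (5.94 on the KO and 5.66 on the WT array). Both replicate 3 arrays carried Xist (12.59 on the KO and 12.64 on the WT array) together with Eif2s3y (10.05 on the KO and 10.21 on the WT array), which 1 mouse does not give, and results are therefore also given without this pair. Along the main axis of variation over all genes, KO replicates 1 to 3 scored -41.3, 13.4 and -14.6, against 26.1, 23.8 and -7.36 for WT replicates 1 to 3, so KO replicate 2 and WT replicate 3 lay nearest the other genotype. CD4 T cell markers (7 of 8 measured, 0 under the dimmest gene tested) averaged 11.02 to 11.25 on KO and 10.52 to 11.09 on WT arrays, with 6 of the 7 higher in KO (median 0.21) and 0 past the test. Of the 7, 2 had an unadjusted limma p under 0.05 on the higher side, against 3.57% of all genes. In 1 the KO arrays lay above all WT arrays, against 5.86% of all genes. The difference between 3′ and 5′ probe sets of Actb, a measure of RNA integrity, was 0.32 to 0.36 on KO and 0.28 to 0.37 on WT arrays.

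Proteasome transcripts were lower in miR-155 KO cells in nearly every subunit by a small amount, and in none past the test. Of the 42 genes, 41 were bright enough to be tested, with mean log2 levels between 8.08 and 12.7. In 39 the KO mean was lower and in 2 higher, whereas 50.8% of the 9295 genes tested were lower in KO. The median difference of the 41 genes was -0.29 on the log2 scale (KO minus WT), a ratio of 1.23 of WT over KO, against -0.0036 over all genes tested. The remaining gene, Psma8, which encodes an alpha subunit of the testis, measured 3.52, 3.68 and 3.47 on the KO arrays, against 3.72, 3.68 and 3.99 on WT arrays, under the dimmest gene tested (4.72). In limma, with Benjamini-Hochberg adjustment over the 9295 genes, 0 members had an adjusted p under 0.05, as 0% of all genes did. The adjusted p of the members ran between 0.631 and 0.990.

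Without adjustment, limma gave 1 of the 41 genes, Psmb9, a p under 0.05 on the lower side, where 3.86% of all genes had one, and 0 on the higher side, where 3.57% had one. The KO arrays lay below all WT arrays in 2 of the 41 genes, Psmb9 and Psma4, against 6.92% of all genes, and above them in 0, against 5.86%. By these counts single members passed no more often than other genes. The shift and the spread between arrays were of similar size. The median SD over the 41 genes was 0.22 in KO and 0.25 in WT, and the difference was larger than the larger SD in 20. The members share arrays and are not independent replicates, so their number adds no replication.

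Which arrays were high or low was much the same from gene to gene. KO replicate 1 was the lowest array in 27 of the 41 genes and KO replicate 3 in 10, while WT replicate 1 was the highest in 26 and WT replicate 2 in 9. KO replicate 2, the highest KO array for most genes, lay above WT replicate 3 in 34 genes, so the genotypes overlap there. Within the same replicate number, KO lay below WT in 37 genes for replicate 1, 37 for replicate 2 and 35 for replicate 3, the sex transcripts being matched within each number. The share of all genes lower in KO within each number was not determined, so these counts cannot be read as particular to the proteasome. The labels do not say what the numbers stand for.

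**Figure D1:**
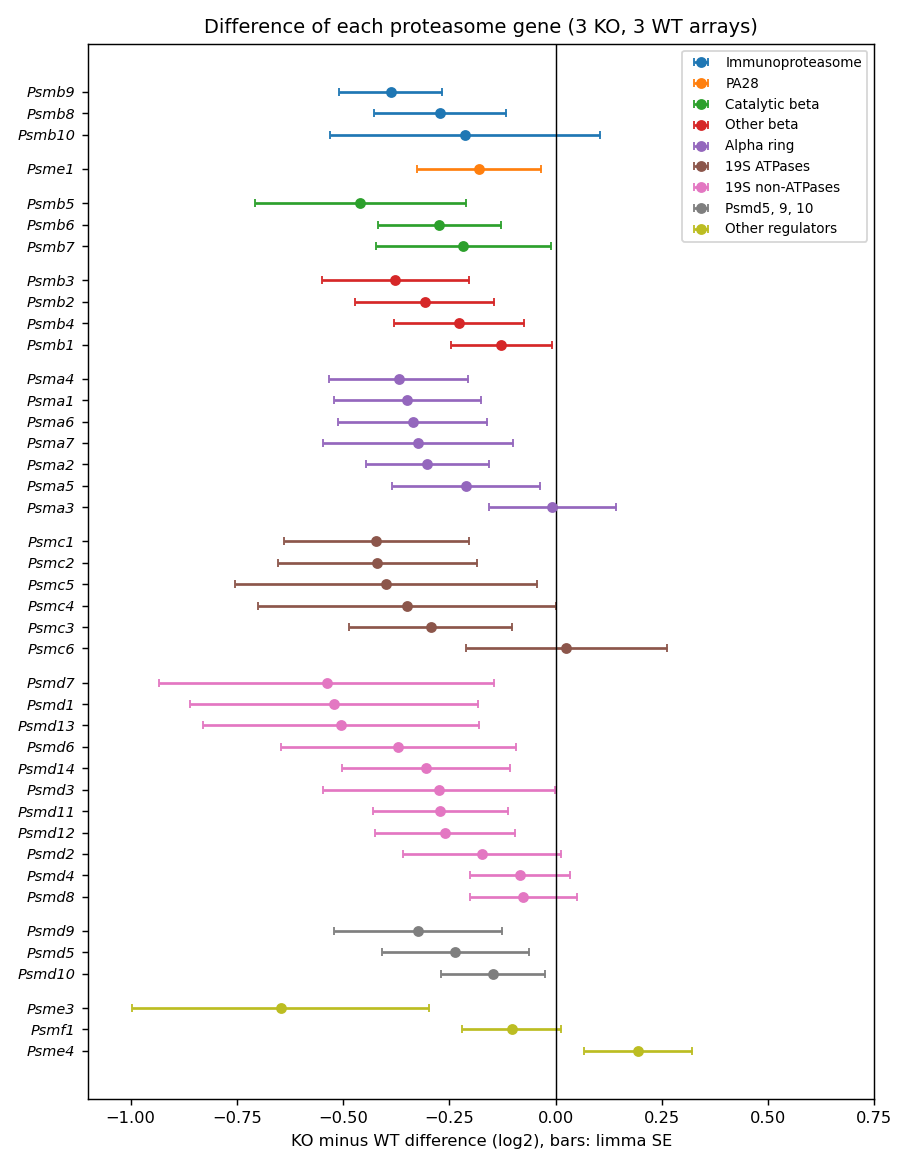
Difference between KO and WT (x axis, KO minus WT, log2, bars give the limma SE) for each of the 41 proteasome genes tested (rows), grouped and coloured by role. Points lie left of 0 for 39 genes, and Psmc6 and Psme4 lie to the right.

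The immunoproteasome genes were taken first. Psmb9 encodes the interferon-induced subunit that replaces that of Psmb6. It measured 11.46, 11.62 and 11.61 on the KO arrays, against 11.97, 12.06 and 11.81 on the WT arrays. All KO arrays lay below all WT arrays. KO averaged 11.56 ± 0.09 and WT 11.95 ± 0.13 (SD, n = 3 each), which makes a log2 difference of -0.39 ± 0.12 (SE), with a limma p of 0.016 before and 0.631 after adjustment over all genes. The 95% interval ran from -0.68 to -0.10.

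Psmb8, whose product replaces that of Psmb5, measured 11.94, 12.38 and 12.24 on the KO arrays, against 12.54, 12.54 and 12.29 on the WT arrays. KO replicate 1 stood lowest, and KO replicate 2 reached above WT replicate 3. The difference was -0.27 ± 0.15 (SE), limma adjusted p = 0.631, and -0.15 without KO replicate 1. Psmb10, whose product replaces that of Psmb7, measured 9.69, 10.86 and 10.50 on the KO arrays, against 10.59, 10.86 and 10.24 on the WT arrays. Its low mean in KO came from replicate 1, since both other KO arrays lay above WT replicate 3. Its difference was -0.21 ± 0.32 (SE), and it turned to 0.12 without KO replicate 1, so no direction can be read. Psme1 encodes a subunit of PA28, a ring that caps the core and opens it. It measured 12.42, 12.80 and 12.63 on the KO arrays, against 12.71, 12.96 and 12.72 on the WT arrays, which overlap. Its difference was -0.18 ± 0.15 (SE), with a 95% interval from -0.53 to 0.17, and -0.083 without KO replicate 1.

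The 4 genes had a median difference of -0.24, and -0.12 without KO replicate 1. Without both replicate 3 arrays it was -0.42. Taking out KO replicate 2 moved it by over 1.5 times as well, to -0.39.

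**Figure D2:**
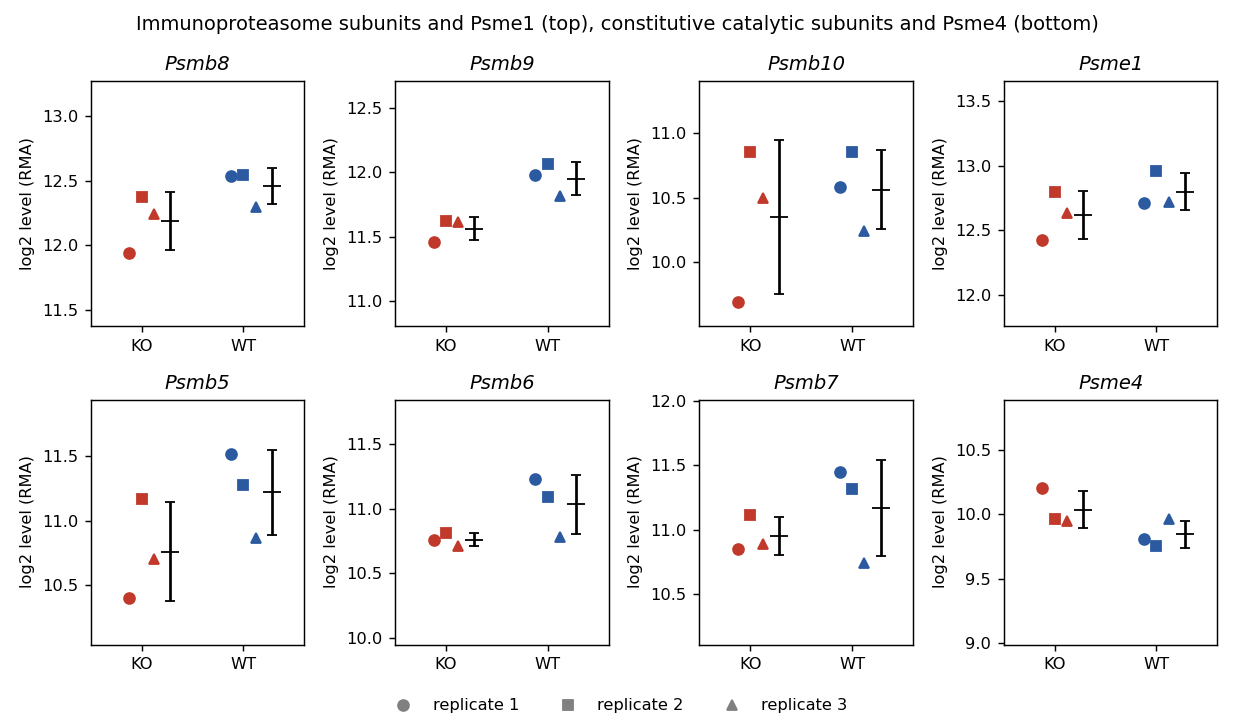
RMA log2 levels (y axis, same span in every panel) of Psmb8, Psmb9, Psmb10 and Psme1 (top) and of Psmb5, Psmb6, Psmb7 and Psme4 (bottom) on 3 KO (red, left) and 3 WT (blue, right) arrays. Symbols mark the replicate number, and black bars the mean ± SD. Psmb9 is the 1 gene of the 8 whose genotypes do not overlap.

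Psmb9 and Psmb8 are neighbours in the MHC, with Tap1 between them and Tap2 beyond, by the order of genes in RefSeq (GRCm38.p6). Psmb9 and Tap1 start back to back. The stretch between both starts and the bases before Psmb8 are shown because interferon gamma acts on these genes through such promoters, and those of Psmb5 and Psme4 for comparison with a constitutive subunit and with the activator that differed in the other direction. Capitals mark matches to 4 motifs searched on both strands, the core of the Nfe2l1 and Nfe2l2 element (TGACNNNGC), an IRF element, a STAT palindrome (TTCNNNGAA) and the CCAAT box (CCAAT). Sequences are from RefSeq (GRCm38.p6), 5′ to 3′ on the strand of the gene, at chr17:34187331-34187555 (minus strand, from Tap1 towards Psmb9), chr17:34197945-34198194 (plus), chr14:54617996-54618245 (minus) and chr11:30771525-30771774 (plus).
Psmb9 to Tap1: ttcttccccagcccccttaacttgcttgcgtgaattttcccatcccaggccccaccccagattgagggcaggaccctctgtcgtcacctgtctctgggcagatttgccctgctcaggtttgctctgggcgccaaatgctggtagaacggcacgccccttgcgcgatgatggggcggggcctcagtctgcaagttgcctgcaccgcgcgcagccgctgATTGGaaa
Psmb8: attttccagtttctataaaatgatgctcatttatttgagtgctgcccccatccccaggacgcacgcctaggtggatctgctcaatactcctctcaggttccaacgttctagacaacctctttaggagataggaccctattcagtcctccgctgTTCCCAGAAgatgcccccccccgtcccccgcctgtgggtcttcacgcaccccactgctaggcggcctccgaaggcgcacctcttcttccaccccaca
Psmb5: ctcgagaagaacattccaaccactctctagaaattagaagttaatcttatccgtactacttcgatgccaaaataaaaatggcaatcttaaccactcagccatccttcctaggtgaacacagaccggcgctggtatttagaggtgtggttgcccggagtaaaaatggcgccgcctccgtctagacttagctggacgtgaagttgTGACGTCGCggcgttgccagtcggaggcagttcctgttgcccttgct
Psme4: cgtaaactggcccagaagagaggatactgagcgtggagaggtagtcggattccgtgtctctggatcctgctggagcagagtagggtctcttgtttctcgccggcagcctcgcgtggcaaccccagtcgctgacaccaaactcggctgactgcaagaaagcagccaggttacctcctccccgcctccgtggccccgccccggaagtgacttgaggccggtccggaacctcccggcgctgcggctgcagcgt

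The stretch of 225 bases between Psmb9 and Tap1 held a CCAAT box on the opposite strand, Psmb8 a STAT palindrome and Psmb5 an Nfe2l1 and Nfe2l2 core, and none of the 4 motifs was found before Psme4. Promoter windows, 250 bases before to 50 after the start, were given for 35 of the 42 genes. The Nfe2l1 and Nfe2l2 core was in 6 of 31 windows of constitutive genes (19.4%, among them Psmb5, Psmb6, Psmc6 and Psme4, the last after its start) and in 0 of the 4 windows of Psmb8, Psmb9, Psmb10 and Psme1, against 13.99% of all 27025 genes with a window. An IRF element was in the window of Psme1 and in those of Psmb3, Psmd4 and Psmd9, against 3.99% of all genes. A STAT palindrome was in those of Psmb8 and Psmd2, against 9.55%. The CCAAT box was in 12 of 31 constitutive windows (38.7%) against 41.1%. These are matches of letters and not binding sites.

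Tap1 lies on the other side of the stretch before Psmb9. Tap1, a subunit of the peptide transporter of MHC class I, measured 11.36, 10.91 and 11.14 on the KO arrays, against 11.21, 11.31 and 11.33 on the WT arrays, with overlap and KO replicate 1 highest of all. Its difference was -0.14 ± 0.14 (SE), next to -0.39 for Psmb9. As the mean of its probe sets the difference was 0.011. The other Tap1 probe sets were far dimmer, with mean log2 levels of 2.84, 3.20 and 5.75 against 11.21 for the brightest.

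Of the constitutive catalytic subunits, which the immunoproteasome subunits replace, Psmb5, with chymotrypsin-like activity, measured 10.40, 11.17 and 10.71 on the KO arrays, against 11.51, 11.27 and 10.87 on the WT arrays. KO replicate 2 lay above WT replicate 3 and the genotypes overlap. The difference was -0.46 ± 0.25 (SE) and -0.28 without KO replicate 1. Psmb6, with caspase-like activity, measured 10.75, 10.81 and 10.71 on the KO arrays, against 11.23, 11.09 and 10.78 on the WT arrays. Here the KO arrays lay close together, and WT replicate 3 lay among them. The difference was -0.27 ± 0.15 (SE), and -0.17 without WT replicate 1. Psmb7, with trypsin-like activity, measured 10.85, 11.12 and 10.89 on the KO arrays, against 11.45, 11.31 and 10.74 on the WT arrays. WT replicate 3 was the lowest array of all 6. Its difference of -0.22 ± 0.21 (SE) became -0.078 without WT replicate 1 and -0.43 without WT replicate 3.

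Whether the exchange of subunits was tilted was examined by the difference between each immunoproteasome transcript and the one it replaces, array by array. Relative to the mean of all arrays, Psmb8 minus Psmb5 was 0.20, -0.13 and 0.20 on the KO arrays, against -0.31, -0.06 and 0.09 on the WT arrays. The genotypes overlap, the KO minus WT difference of 0.19 ± 0.16 (SE) gave an exact two-sided permutation p of 0.3, and it was 0.080 without WT replicate 1. Psmb9 minus Psmb6 differed by -0.11 ± 0.11 (SE, exact permutation p = 0.3), and by -0.064 without KO replicate 1, -0.20 without WT replicate 1 and -0.056 without WT replicate 3. Psmb10 minus Psmb7 differed by 0.0031 ± 0.31 (SE, exact permutation p = 1). Adjusted over the 3 pairs the exact permutation p were 0.45, 0.45 and 1, and 3 against 3 arrays cannot give a p below 0.1. No unequal change between the immunoproteasome and the constitutive catalytic transcripts was detectable with these arrays.

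In the alpha ring, which gates the core, all 7 genes were lower in KO, with a median difference of -0.32. Psma4 measured 11.73, 12.19 and 12.10 on the KO arrays, against 12.42, 12.50 and 12.20 on the WT arrays, and KO replicate 2 missed WT replicate 3 by a narrow margin. The difference was -0.37 ± 0.16 (SE, limma p of 0.061 before and 0.631 after adjustment), and -0.23 without KO replicate 1. Psma2 followed at -0.30 ± 0.14 (SE). Psma3 stood out at the other end, with 12.57, 12.51 and 12.29 on the KO arrays, against 12.68, 12.42 and 12.29 on the WT arrays, a difference of -0.0074 (95% interval from -0.36 to 0.35).

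The noncatalytic beta subunits were lower in KO in 4 of 4 genes, with a median of -0.27. The 2 with the smallest p were Psmb3, at 10.65, 11.10 and 10.80 on the KO arrays against 11.46, 11.19 and 11.03 on the WT arrays, and Psmb2, at 10.65, 11.09 and 10.93 on the KO arrays against 11.39, 11.19 and 11.01 on the WT arrays. In both genes KO replicate 2 lay above WT replicate 3. The differences were -0.38 ± 0.17 (SE) for Psmb3 and -0.31 ± 0.16 (SE) for Psmb2. Psmb1, with means of 12.39 in KO and 12.51 in WT, differed by -0.13.

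The ATPases at the base of the cap, which pull the substrate in, had the lowest median of these groups, -0.37, with 5 of 6 lower. Psmc1 measured 9.28, 9.97 and 9.75 on the KO arrays, against 10.36, 10.04 and 9.87 on the WT arrays, a difference of -0.42 ± 0.22 (SE), and -0.23 without KO replicate 1. Psmc2 differed by -0.42 ± 0.23 (SE), and by -0.25 without WT replicate 1. Psmc6 was the exception, and its probe sets disagreed. The brightest measured 11.87, 11.12 and 11.04 on the KO arrays, against 11.46, 11.18 and 11.32 on the WT arrays, with KO replicate 1 highest, and differed by 0.025. The next differed by -0.38 and the dimmest by -0.11.

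The other cap subunits recognise ubiquitin, remove it and hold the lid together. All 11 were lower in KO, with a median of -0.27 and differences between -0.54 and -0.076. The smallest p were those of Psmd11, a lid subunit, at -0.27 ± 0.16 (SE), and Psmd12, also of the lid, at -0.26 ± 0.16 (SE), which became -0.17 and -0.12 without WT replicate 1. Weaker Psmd11 probe sets, at mean log2 levels of 9.97, 9.51 and 9.14, differed by -0.38, -0.32 and -0.015. The dimmest, at 5.50 and 4.77, differed by 0.080 and -0.14, and the mean of all Psmd11 probe sets by -0.18. The largest differences, Psmd7 at -0.54, Psmd1 at -0.52 and Psmd13 at -0.51, were also among the most variable. They became -0.26 without WT replicate 1 for Psmd7, -0.28 without KO replicate 1 for Psmd1 and -0.23 without KO replicate 1 for Psmd13. Psmd7 measured 8.48, 9.63 and 8.98 on the KO arrays, against 10.13, 9.67 and 8.90 on the WT arrays, so that WT replicate 3 lay below both KO replicate 2 and KO replicate 3. The ubiquitin receptor gene Psmd4 and Psmd8 were nearly level, at -0.084 and -0.076. Psmd5, Psmd9 and Psmd10, whose products help to assemble the cap and leave it, differed by -0.24, -0.32 and -0.15. Psmd5 became -0.093 and Psmd9 -0.18 without WT replicate 1, and Psmd10 -0.076 without KO replicate 2.

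Among the alternative caps and regulators the directions differed. Psme3 encodes PA28 gamma, the nuclear activator, and had the most negative difference of the 41 genes. It measured 7.72, 8.77 and 8.04 on the KO arrays, against 9.21, 9.03 and 8.23 on the WT arrays, with overlap between KO replicate 2 and WT replicate 3. The difference was -0.65 ± 0.35 (SE, limma p of 0.109 before and 0.631 after adjustment), and -0.42 without KO replicate 1. A weaker Psme3 probe set differed by -0.52.

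Psme4 encodes PA200, another nuclear activator of the core, and was higher in KO. Its brightest probe set measured 10.20, 9.96 and 9.94 on the KO arrays, against 9.81, 9.76 and 9.96 on the WT arrays, where WT replicate 3 overlaps. The difference was 0.19 ± 0.13 (SE, limma p of 0.175 before and 0.643 after adjustment). The 2 other probe sets measured 9.95, 9.71 and 9.83 on the KO arrays against 9.53, 9.55 and 9.63 on the WT arrays, and 7.78, 7.72 and 7.75 on the KO arrays against 7.56, 7.47 and 7.57 on the WT arrays. In both, all KO arrays lay above all WT arrays, with differences of 0.26 and 0.22. By the brightest probe set, 5.86% of all genes tested lay so. Without adjustment limma gave them p of 0.042 and 0.050, and 0.702 after adjustment over all probe sets with a single gene. Psme4 was the 1 gene of the 41 that stayed higher in KO with each array left out in turn, between 0.11 and 0.25, while 36 stayed lower each time. These fits share most of their arrays, and the share of all genes that kept their sign was not determined. Psmf1, an inhibitor of the proteasome in biochemical assays, differed by -0.10.

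**Figure D3:**
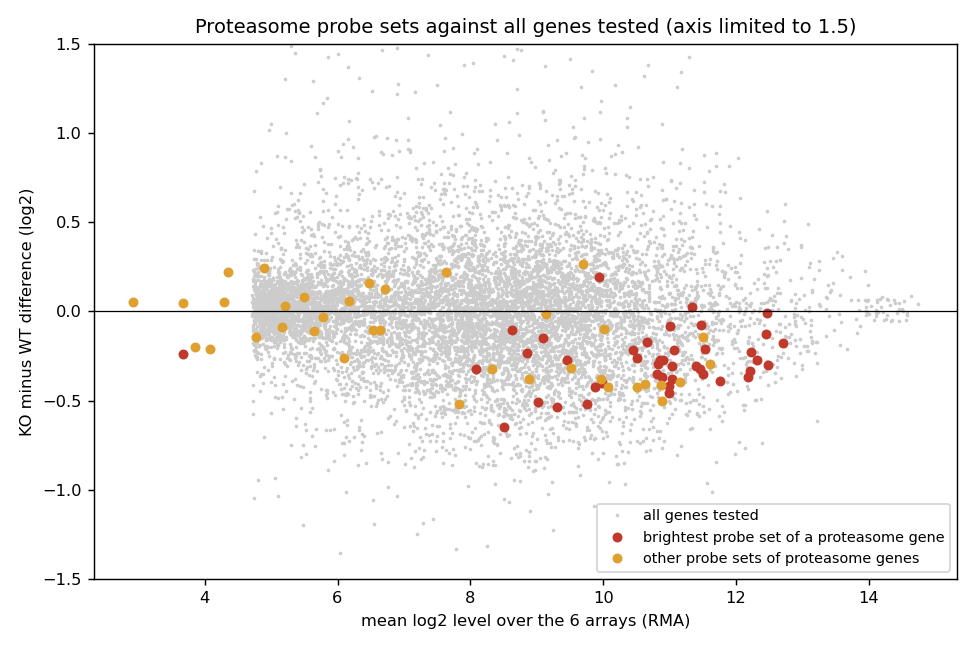
Mean log2 level over the 6 arrays (x axis) and KO minus WT difference (y axis, log2) of the genes tested (grey), of the brightest probe set of each of the 42 proteasome genes (red) and of their other probe sets (orange). The axis leaves out 31 genes with larger differences. Bright proteasome probe sets lie mostly between 0 and -0.6, and dim ones gather around 0.

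Over all 80 probe sets, Psmc3ip and Psme3ip1 included, 66 were lower in KO and 14 higher, against 49.8% lower among all probe sets with a single gene. Of the 30 that were not the brightest of their gene but as bright as the dimmest gene tested, 22 were lower, with a median of -0.13. The 8 higher ones were both weaker Psme4 probe sets and 6 others, all dimmer, from Psma6, Psmb1, Psmd4, Psmd7 and Psmd11. The 7 dimmest, with means under 4.72, split into 4 higher and 3 lower. Dim probe sets lie near background, where such summaries compress differences.

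The genes that match the name pattern only are not proteasome subunits. Psmc3ip, a partner of the recombinases of meiosis, measured 6.84, 7.81 and 7.22 on the KO arrays, against 8.33, 8.51 and 7.62 on the WT arrays. KO replicate 2 lay above WT replicate 3. Its difference was -0.86 ± 0.32 (SE, limma p of 0.033 before and 0.631 after adjustment). Psme3ip1, which encodes a protein that binds PA28 gamma, differed by -0.057.

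Factors that assemble the core were lower as well. All 5 tested, Pomp and Psmg1 to Psmg4, were lower in KO, with a median of -0.43, 0 past the test, and in 3 (Psmg1, Psmg3 and Pomp) the KO arrays below all WT arrays, as in 6.92% of all genes. Psmg1, a chaperone of the alpha ring, measured 10.04, 10.13 and 9.99 on the KO arrays, against 10.68, 10.53 and 10.24 on the WT arrays, a difference of -0.43 ± 0.14 (SE, limma p of 0.022 before and 0.631 after adjustment). Psmg3 measured 8.46, 8.66 and 8.33 on the KO arrays, against 9.52, 9.07 and 8.68 on the WT arrays, a difference of -0.61 ± 0.23 (SE, limma p of 0.033 before and 0.631 after adjustment), and -0.39 without WT replicate 1. Pomp, the maturation factor of the core, measured 11.38, 11.85 and 11.80 on the KO arrays, against 11.94, 11.91 and 11.86 on the WT arrays, a difference of -0.23 that became -0.085 without KO replicate 1.

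Among 10 tested genes for ubiquitin receptors and deubiquitinases bound to the proteasome, 9 were lower in KO, with a median of -0.10 and 0 past the test (0 at an unadjusted p under 0.05). Without KO replicate 3, 6 of the 10 were lower. Uchl5, a deubiquitinase of the cap, differed by -0.43 ± 0.30 (SE), and by -0.19 without WT replicate 1. Usp14, another deubiquitinase of the cap, differed by 0.39 ± 0.21 (SE) by its brightest probe set, while its weaker ones differed by -0.21 and -0.47, so that its direction depends on the probe set. Of 4 tested genes of ubiquitin supply and the p97 segregase 2 were lower. Vcp, the gene of p97, differed by -0.19 (-0.051 without KO replicate 1) and its partner gene Nploc4 by 0.049, and a weaker Vcp probe set differed by 0.48.

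Genes of the transcriptional control of the proteasome were mostly higher. The list holds transcription factors and 2 genes that act on them, Keap1, a ubiquitin ligase adaptor, and Ngly1, a glycanase. Of 9 tested, 7 were higher in KO, with a median of 0.39 and 0 past the test. An unadjusted limma p under 0.05 on the higher side was found for 2, Nfe2l2 and Bach1, against 3.57% of all genes. The median over the list of the level minus the mean of all arrays was 0.47, -0.13 and 0.005 on the KO arrays. It was -0.17, -0.15 and -0.12 on the WT arrays. KO replicate 1 thus stood far above the rest, and KO replicate 2 lay among the WT arrays. Without KO replicate 1, 3 of the 9 genes were lower in KO. Nfe2l2, the factor of the antioxidant response, measured 9.04, 8.91 and 8.85 on the KO arrays, against 8.51, 8.47 and 8.26 on the WT arrays. All KO arrays lay above all WT arrays. The difference was 0.52 ± 0.12 (SE, limma p of 0.0043 before and 0.631 after adjustment), and between 0.45 and 0.57 with any 1 array left out. Bach1, a repressor at the same DNA element and a reported target of miR-155, measured 8.94, 8.10 and 8.27 on the KO arrays, against 7.34, 7.83 and 7.93 on the WT arrays, a difference of 0.74 ± 0.26 (SE, limma p of 0.028 before and 0.631 after adjustment), and 0.49 without KO replicate 1. Nfe2l1 itself was level, with 8.69, 8.37 and 8.52 on the KO arrays, against 8.57, 8.37 and 8.56 on the WT arrays, a difference of 0.031 with a 95% interval from -0.29 to 0.35. The transcript does not show how much Nfe2l1 protein is active, since the protein is cleaved before it acts.

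The interferon gamma axis, which induces the immunoproteasome, was mixed, with 4 of 9 tested genes higher and 5 lower and a median of -0.047. Of the 9, 0 passed the test. An unadjusted limma p under 0.05 was found for 2 on the higher side (3.57% of all genes) and 1 on the lower side (3.86%). Ifng itself measured 6.32, 7.35 and 6.87 on the KO arrays, against 8.48, 8.32 and 7.23 on the WT arrays. KO replicate 2 lay just above WT replicate 3. The difference was -1.17 ± 0.40 (SE, limma p of 0.023 before and 0.631 after adjustment), and -0.90 without KO replicate 1. Its receptor gene Ifngr1 measured 10.44, 9.25 and 9.96 on the KO arrays, against 8.77, 8.94 and 9.29 on the WT arrays, a difference of 0.89 ± 0.31 (SE, limma p of 0.026 before and 0.631 after adjustment). Jak2, the kinase on that receptor, was the other gene with an unadjusted limma p under 0.05 on the higher side, at 0.38, and was named after its values were seen. Irf1, the factor that drives the immunoproteasome genes, differed by -0.13 ± 0.16 (SE), and by -0.027 without KO replicate 1. Nlrc5 was not analysed here.

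Other genes of this response had mixed directions. Of 8 tested interferon gamma induced GTPases and chemokines, 6 were lower in KO and 2 higher, with a median of -0.27 and 0 past the test (0 at an unadjusted p under 0.05). Iigp1 measured 8.79, 10.72 and 10.02 on the KO arrays, against 11.34, 11.04 and 10.05 on the WT arrays, a difference of -0.97 ± 0.54 (SE), and -0.44 without KO replicate 1. Gbp2 differed by 0.30 ± 0.17 (SE). Of 13 tested genes of MHC class I processing and presentation 6 were lower and 7 higher, with a median of 0.0047. Lap3, an aminopeptidase that trims peptides, differed by -0.74 ± 0.35 (SE), and H2-D1, a class I heavy chain whose probe sets can share signal with other class I genes, by 0.16 ± 0.12 (SE).

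Values of other lists were set beside those of the proteasome on each array, as the median over genes of the level minus the mean of the 6 arrays. The 31 constitutive core and cap genes stood at -0.34, 0.06 and -0.22 on the KO arrays, against 0.36, 0.19 and -0.12 on the WT arrays. The 4 genes Psmb8, Psmb9, Psmb10 and Psme1 stood at -0.34, 0.07 and -0.08 on the KO arrays, against 0.17, 0.28 and -0.01 on the WT arrays. Both had KO replicate 1 lowest and WT replicate 3 below the other WT arrays, much as on the main axis of variation.

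Cell cycle genes, such as the mitotic kinase genes Bub1 and Aurkb, stood at -0.87, 0.04 and -0.09 on the KO arrays, against 0.26, 0.35 and 0.22 on the WT arrays, all 14 tested being lower in KO with a median of -0.63. KO replicate 1 stood far below the rest there. Of the 14 genes, 0 passed the test and 5 had an unadjusted limma p under 0.05 on the lower side (3.86% of all genes). In 6 the KO arrays lay below all WT arrays (6.92% of all genes). Bub1 differed by -0.37 ± 0.11 (SE) and Aurkb by -0.49 ± 0.17 (SE), or -0.32 without KO replicate 1. Of 9 tested heat shock genes, whose products handle misfolded protein, 6 were lower and 3 higher in KO, with a median of -0.060. Hspe1 differed by -0.28 ± 0.15 (SE) and Bag3 by 0.38 ± 0.25 (SE), or 0.14 without WT replicate 1.

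Cells other than CD4 T cells also carry immunoproteasomes. Of the B cell markers 6 of 7 were measured, with mean log2 levels of 6.08 to 6.65 on KO and 5.94 to 6.78 on WT arrays. Their list stood at 0.03, 0.27 and -0.33 on the KO arrays, against 0.34, 0.15 and -0.52 on the WT arrays, so that KO replicate 3 and WT replicate 3 were low there. Of the 5 tested 3 were higher in KO and 2 lower, with a median of 0.077. Pax5 lay under the dimmest gene tested. Markers of macrophages and monocytes (6 of 7 measured) averaged 4.90 to 5.21 on KO and 4.69 to 5.08 on WT arrays, with Cd14, Lyz2 and Fcgr1 under that level. All 3 tested were higher in KO, with a median of 0.29, and their list stood at 0.27, -0.10 and 0.35 on the KO arrays, against -0.39, -0.15 and 0.11 on the WT arrays. Dendritic cell markers (6 of 7 measured) averaged 5.42 to 5.64 on KO and 5.28 to 5.64 on WT arrays, with Itgax and Xcr1 under it, and NK cell markers (4 of 5 measured) 4.92 to 4.96 on KO and 4.75 to 5.19 on WT arrays, with Ncr1 and Klra8 under it. CD8 T cell markers (2 of 2 measured) averaged 6.56 to 6.92 on KO and 6.56 to 6.75 on WT arrays, and those of neutrophils, red cells and platelets (6 of 8 measured, 5 under the dimmest gene tested) 3.85 to 3.97 on both. The part of cell cycle state and of other cells in the proteasome values was not tested, and in bulk RNA fewer cells of a kind cannot be told apart from less RNA per cell.

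**Figure D4:**
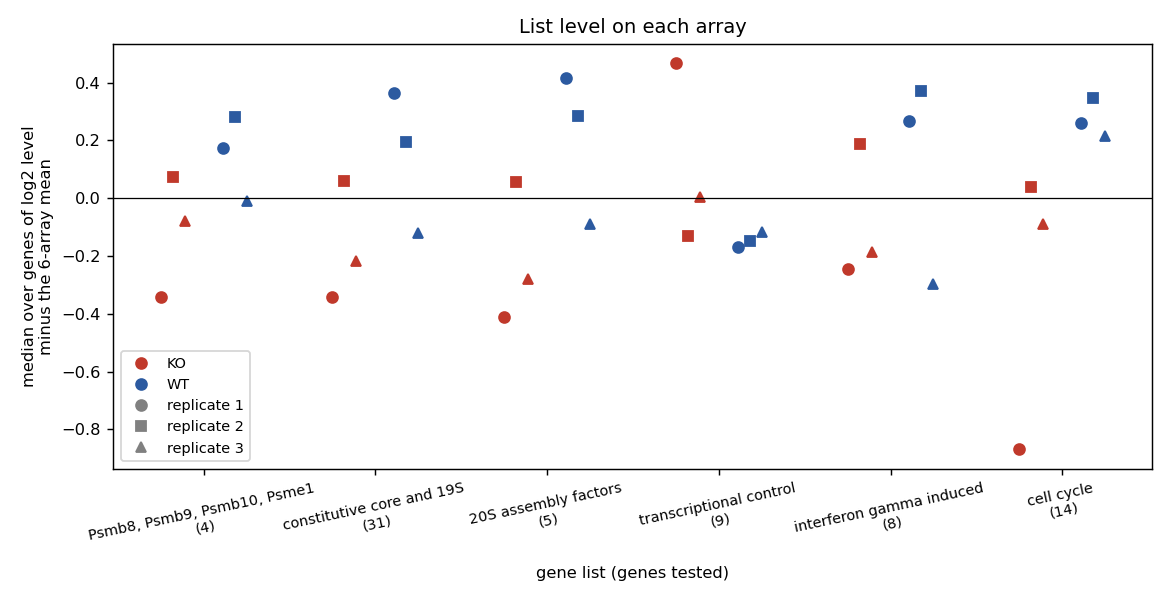
Median over the genes of a list of the log2 level minus the mean of the 6 arrays (y axis) for 6 lists (x axis, genes tested in brackets) on 3 KO (red, left) and 3 WT (blue, right) arrays, with symbols for the replicate number. KO replicate 1 is lowest in both proteasome lists (-0.34 each), in the assembly factors (-0.41) and in the cell cycle list (-0.87), and highest in the transcriptional control list (0.47).

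The constitutive genes were mostly lower in KO with any 1 array left out, by an amount that depended on the array. The median of the 37 tested genes other than Psmb8, Psmb9, Psmb10 and Psme1 was -0.30, with 35 lower. It was -0.22 without KO replicate 1 (36 lower), -0.20 without WT replicate 1 (33 lower), -0.43 without WT replicate 3 (35 lower) and -0.40 without both replicate 3 arrays (35 lower). Genes not overlapping on the lower side numbered 2 of 41 with all arrays and 29 without both replicate 3 arrays, where 2 arrays face 2 and 24.1% of all genes are lower without overlap. With 1 array left out, 38 of the 41 differences moved by over 1.5 times or turned sign, and those of Psmb9, Psma2 and Psmb3 did not. With all arrays, the 95% intervals of 40 of the 41 genes included 0.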

How the data were processed

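Per the submitters' processing notes, the authors made the deposited log2 values with RMA and the affy package. RMA corrects the background, brings the arrays to 1 distribution and summarises each probe set, which compresses differences near background. Their versions are not given here, and precision rests on 6 arrays.

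Gene symbols came from GEO's platform annotation. The table held 22690 probe sets, of which 64 were controls, 691 had several symbols and 1555 none. All 44 member genes were found in RefSeq (GRCm38.p6), which gave names and promoter sequences. The brightest probe set of each gene was kept and the dimmest 25% of genes were left out. KO and WT were compared over the remaining 9295 genes in limma 3.58.1 under R 4.3.3, by lmFit with eBayes (two-sided, Benjamini-Hochberg adjustment), and single probe sets in the same way over all with 1 gene. The fit was tested on simulated data with known changes.

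Members and lists were chosen with earlier results of these data known. Named were Mir155hg, the catalytic and immunoproteasome genes, per group the 2 genes with the smallest p and any with p under 0.05, per list the 2 with the smallest p, and Ifng, Irf1, Tap1, Pomp and Nfe2l1. Psma3, Psmb1, Psmc6, Psmd1, Psmd4, Psmd7, Psmd8, Psmd10, Psmd13, Psmf1, Jak2, Xist and Eif2s3y were added after their values were seen.

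Alternatives were single arrays left out, the replicate number as a block, median centring, the mean of probe sets, no filter, a filter at 50%, trended and robust eBayes, weights for arrays (statmod 1.5.0) and, after seeing the data, leaving out both replicate 3 arrays. Same-numbered arrays correlated in their deviations from the group means by -0.042, 0.638 and 0.404. Differently numbered arrays correlated by -0.688 (KO replicate 2 with WT replicate 3) to 0.395 (KO replicate 1 with WT replicate 3). By this measure the numbers do not pair all arrays, although same-numbered arrays match in sex transcripts. The block is therefore given as an alternative.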

Additional observations from a re-analysis of the deposited data

How the results depend on the processing

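With 1 array left out, 0 genes and 0 members passed, the median of Psmb8, Psmb9, Psmb10 and Psme1 lay between -0.39 and -0.12 and that of the constitutive core and cap genes between -0.45 and -0.21. Members with an unadjusted p under 0.05 on the lower side numbered 1 with all arrays, and 0 (without WT replicate 2, where 1.42% of all genes had one) to 16 (without WT replicate 3, 8.12% of all genes), with 11 without KO replicate 2 (9.33%). Members not overlapping on the lower side numbered 2 with all arrays, and 2 to 29 with 1 left out (6 without KO replicate 1, 25 without KO replicate 2, 4 without WT replicate 1 and 29 without WT replicate 3, where 11.4%, 19.6%, 10.7% and 20.9% of all genes were so), 29 without both replicate 3 arrays (24.1%) and 1 after median centring (6.44%). With the replicate number as a block, 2 members had an unadjusted p under 0.05 on the lower side in place of 1 (5.1% of all genes), and 0 passed.

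Array weights changed the calls most. They gave 3575 genes (38.5%) and 30 members past the test and 33 members with an unadjusted p under 0.05 on the lower side (26.4% of all genes). The weights, estimated from these same arrays, fell mostly on 2 of them. They were 5.55 for KO replicate 3 and 5.04 for WT replicate 2, against 0.27 to 0.58 for the others. The calls made with them therefore hardly show a replicate spread.

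The pair Psmb10 minus Psmb7 ran from -0.17 to 0.28 with 1 array left out and was -0.050 without both replicate 3 arrays. Other signs turned were, among the members, Psmb10 (-0.47 to 0.12 with 1 array left out), Psma3 (-0.093 to 0.10), Psmc6 (-0.24 to 0.18), Psmd2 (-0.32 to 0.0036) and Psme3ip1 (-0.12 to 0.035, and -0.14 without both replicate 3 arrays), and among the other named genes Nploc4 (-0.085 to 0.14, and -0.16 with array weights) and Nfe2l1 (-0.052 to 0.11), and with the mean of probe sets Usp14 (-0.096), Vcp (0.15) and Tap1 (0.011). Signal over background limits Psma8 and the dim probe sets, among them those of Tap1 at 2.84 and 3.20.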
